A study of Mus musculus with 19 samples.

Results

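The genes described are 42 uptake and transport genes of the kidney's proximal tubule: endocytosis receptors, solute carriers, water and ion transporters, drug exporters and markers of its straight segment. They were chosen by name from the known biology of this tubule, with earlier results of these data known. Of the 42, 41 were found among the 26506 genes of the count table. The urate transporter Slc22a12 was not analysed here. The study sequenced poly(A)-selected RNA of whole kidney and whole liver from male mice. Knockout (KO) mice, 5 kidney and 5 liver libraries, were homozygous for a deletion of exon 6b of the macroH2A1 gene, made with soluble Cre enzyme in the zygote and so present in every cell. This removes the macroH2A1.1 form of the histone and leaves the macroH2A1.2 form. Wild-type (WT) mice, 5 kidney and 4 liver libraries, came from the same kind of matings between heterozygous parents, and both genotypes carried a C57BL/6J background. The age of the mice and which of them received standard or ketogenic chow are not given in the sources used here.

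The kidney libraries held 25919138 to 35131720 counts and the liver libraries 26084473 to 34806035. Levels are in CPM, read counts per library total, further adjusted by the trimmed mean of M values (TMM) within a tissue. The count for H2afy, which encodes macroH2A1, takes in both splice forms and so does not check the deletion itself. H2afy had 49.0, 57.3, 57.4, 54.4 and 61.1 CPM in KO kidneys, against 90.8, 89.2, 82.4, 89.1 and 65.6 CPM in WT kidneys, where WT values run over mice 19, 20, 22, 23 and 24. The library labelled WT 24 lay close to the KO kidneys, and its liver did so too (53.5 CPM, against 42.9 to 52.9 CPM in KO livers), so results are also given without it. The log2 fold change of H2afy in kidney was -0.58, with an adjusted p of 0.135 by edgeR's quasi-likelihood test with Benjamini-Hochberg adjustment, and 0.00679 without the library labelled WT 24. KO kidney 16 also stood apart, with a summed level of 203 CPM for 4 adrenal cortex markers against 4.56 to 6.79 CPM in the other 9 kidneys.

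The proximal tubule takes back most of the filtered glucose, amino acids, bicarbonate, phosphate and protein, and secretes drugs and waste anions into the urine. Its cells carry a brush border facing the filtrate and a basolateral membrane facing the blood, and most transporters sit on one side or the other. The convoluted segments S1 and S2 do most of the bulk uptake. The straight segment S3 carries high-affinity carriers and takes up what is left. The transcription factor HNF4 alpha is known to drive many of these genes, and liver cells use it too.

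All 41 genes had reads in every kidney, at levels that differed widely between genes. The lowest count of a gene in any kidney library was 493, so each level rested on at least 493 reads. The median count was 8468.5. The 41 genes took up 1.60% to 1.92% of the counts of KO kidneys and 1.70% to 1.83% of those of WT kidneys. Per kilobase of exon, over all 10 kidneys, Acy3, an enzyme that deacetylates mercapturic acids, was the highest at 1096 CPM per kb. The cystine and aspartate carrier Slc7a13 followed at 388, the water channel Aqp1 at 321, the anion and urate carrier Slc17a1 at 233 and the organic anion carrier Slc22a6 at 217 CPM per kb. The basolateral urate carrier Slc2a9 was the lowest at 3.98 CPM per kb, after the basolateral organic anion carrier Slco4c1 at 6.36. With the length of the longest transcript in place of all exons, Acy3 stayed the highest and Slc2a9 the lowest, and Slc47a1 took the first place among the organic ion carriers from Slc22a6.

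**Figure D1:**
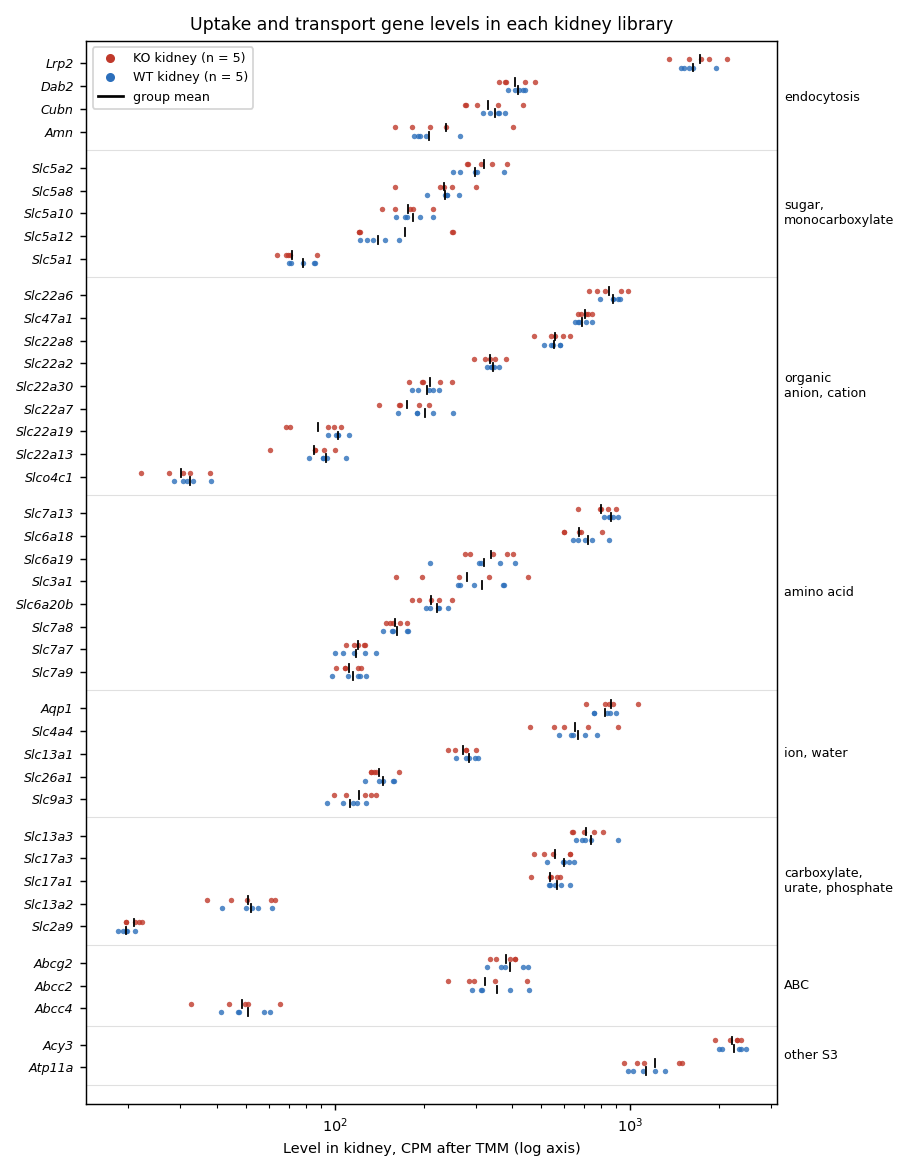
Level of each of the 41 genes in each kidney library, in CPM after TMM scaling on a log axis, grouped by role. Red points are the 5 KO kidneys and blue points the 5 WT kidneys, and a black tick marks each group's mean. The levels run from 18.4 CPM for Slc2a9 to 2472 CPM for Acy3, and KO and WT points overlap for each gene.

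Promoters are shown for members with a match to the motif of HNF4 alpha, one of the known regulators of this tubule. RefSeq start sites with 250 bases before and 50 bases after the start (GRCm38.p6) were available for 34 of the 41 genes. The HNF4 motif CAAAGTCCA, searched on both strands with at most 1 mismatch, matched in 11 of the 34 genes (32.4%) and in 9.64% of all 27025 genes with such a promoter. A gene counted if any of its listed starts matched. By promoter, it matched in 12 of the 47 of these genes and in 8.47% of all 32851. No other motif is given, and a match is a description of letters, not a site or a cause. Of the 11, 5 are printed, chosen after their values were seen. They are the amino acid carrier subunits Slc3a1, the gene with the widest range between kidneys and the only one of the 11 with no mismatch, and its partner Slc7a9, the anion carrier Slc22a19, which had the smallest p between genotypes, its family member Slc22a30, and the megalin gene Lrp2. Sequences run 5′ to 3′ on the gene's strand, with the HNF4 match, on either strand, in capitals. The match began at position -39 from the start in Slc3a1, -127 in Slc7a9, -105 in Slc22a19, -110 in Slc22a30 and -154 in Lrp2. Slc7a9 has another listed start, not printed, from which the same match began at -214.
Slc3a1, chr17:85028097-85028396, plus strand: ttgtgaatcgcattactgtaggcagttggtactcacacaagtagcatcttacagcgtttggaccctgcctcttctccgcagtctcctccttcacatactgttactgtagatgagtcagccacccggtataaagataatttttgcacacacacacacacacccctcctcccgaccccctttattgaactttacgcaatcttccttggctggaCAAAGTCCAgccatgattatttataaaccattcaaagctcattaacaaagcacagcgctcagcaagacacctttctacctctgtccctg
Slc7a9, chr7:35448842-35449141, plus strand: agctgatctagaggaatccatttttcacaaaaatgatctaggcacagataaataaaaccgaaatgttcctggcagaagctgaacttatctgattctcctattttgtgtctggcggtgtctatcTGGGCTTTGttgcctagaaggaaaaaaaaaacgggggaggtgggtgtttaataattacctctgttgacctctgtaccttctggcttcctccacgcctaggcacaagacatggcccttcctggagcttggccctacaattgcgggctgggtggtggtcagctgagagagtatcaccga
Slc22a19, chr19:7711261-7711560, minus strand: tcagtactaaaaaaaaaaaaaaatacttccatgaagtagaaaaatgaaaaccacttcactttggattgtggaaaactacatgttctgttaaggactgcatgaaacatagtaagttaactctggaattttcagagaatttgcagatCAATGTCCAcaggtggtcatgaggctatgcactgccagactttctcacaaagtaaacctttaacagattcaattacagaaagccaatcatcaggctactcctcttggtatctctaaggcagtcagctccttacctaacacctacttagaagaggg
Slc22a30, chr19:8405056-8405355, minus strand: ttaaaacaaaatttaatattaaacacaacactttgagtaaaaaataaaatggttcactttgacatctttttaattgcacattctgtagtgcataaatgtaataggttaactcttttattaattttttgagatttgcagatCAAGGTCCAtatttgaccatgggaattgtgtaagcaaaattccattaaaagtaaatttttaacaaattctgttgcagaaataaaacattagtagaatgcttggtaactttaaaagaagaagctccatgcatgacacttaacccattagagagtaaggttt
Lrp2, chr2:69585980-69586279, minus strand: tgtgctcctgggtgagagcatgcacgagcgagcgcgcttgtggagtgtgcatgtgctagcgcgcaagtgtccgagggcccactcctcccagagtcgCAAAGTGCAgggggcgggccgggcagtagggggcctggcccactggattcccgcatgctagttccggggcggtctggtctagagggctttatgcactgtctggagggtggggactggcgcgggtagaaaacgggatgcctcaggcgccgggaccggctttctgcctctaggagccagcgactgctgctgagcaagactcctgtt
The factor itself was measured in the same kidneys, where Hnf4a averaged 761 ± 81.7 CPM in KO kidneys and 767 ± 83.5 CPM in WT kidneys (SD, n = 5 each).

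No difference between KO and WT kidneys was detected for these genes at this depth and number of mice. Of the 41 genes tested, 0 passed an adjusted p of 0.05 by edgeR's quasi-likelihood test with Benjamini-Hochberg adjustment over 17269 genes, where 1 gene in all (0.00579%) passed. The count at an unadjusted p under 0.05 was also 0 of 41, against 2.95% of all genes, and DESeq2 and limma voom likewise called 0 of 41 (0.0869% and 0.0405% of all genes). Without the library labelled WT 24 the count was again 0 of 41 (0.0395% of all genes). Each of the 41 genes had an adjusted p of 0.999 by edgeR. In whole tissue, fewer cells of a type and less RNA per cell cannot be told apart.

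The log2 fold changes, KO over WT, ran from -0.22 for Slc22a19 to 0.31 for Slc5a12. They were negative for 28 genes and positive for 13, with a median of -0.05, while 47.8% of all genes were negative with a median of 0.01. Without the library labelled WT 24, 26 were negative and the median was -0.02. Each of the 41 fold changes lay within 1.25-fold either way, as did 89.5% of all genes. The 95% intervals of all 41 lay within 2-fold either way (88.4% of all genes), and those of 38 lay within 1.5-fold (69.3%). The 3 wider ones were the lactate carrier Slc5a12 (interval up to 0.83 on the log2 scale), the amino acid transport subunit Slc3a1 (down to -0.72) and the cubilin partner Amn (up to 0.68). KO and WT kidneys overlapped for each of the 41 genes, where 0.562% of all genes had groups that did not overlap.

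**Figure D2:**
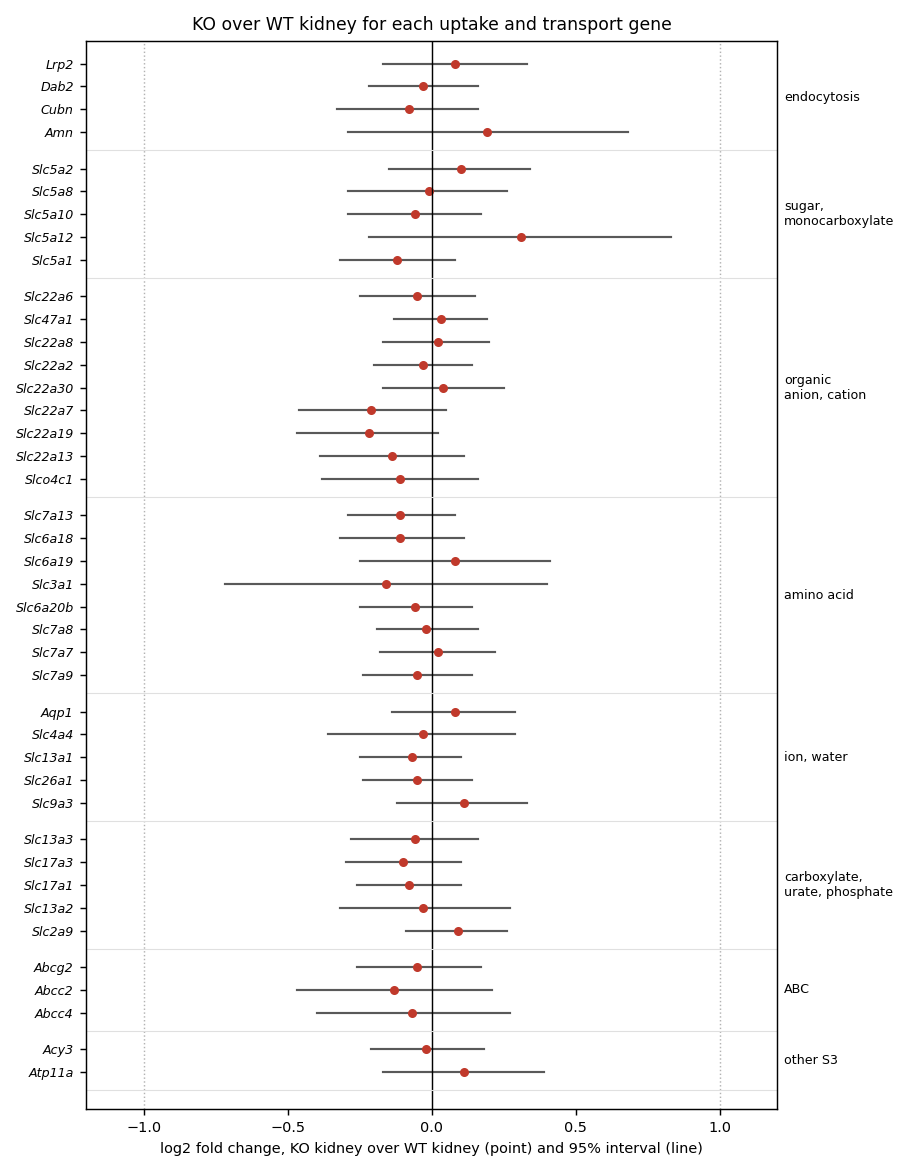
Log2 fold change of each of the 41 genes, KO kidney over WT kidney (red point), with its 95% interval from edgeR (line), grouped by role. Dotted lines mark 2-fold either way. Each interval crosses 0, and the interval of Slc3a1, from -0.72 to 0.40, is the widest.

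Among the endocytosis genes, Amn had one of the widest spreads. Amn, the membrane anchor of cubilin and the first of this group per kilobase, had 159.7, 210.1, 237, 182 and 402 CPM in KO kidneys, against 266, 194, 191, 186 and 204 CPM in WT kidneys. KO values run over mice 13, 14, 15, 16 and 18 here and in what follows. KO kidney 18 was the highest of the 10 and KO kidney 13 the lowest, and the WT kidneys lay between them. By edgeR's quasi-likelihood test Amn had a log2 fold change of 0.19 (SE 0.22, 95% interval -0.29 to 0.68) and an unadjusted p of 0.401; without KO kidney 18 the fold change was -0.08. Megalin, the large scavenger receptor encoded by Lrp2, averaged 1731 ± 290.1 CPM in KO kidneys and 1639 ± 191 CPM in WT kidneys (SD, n = 5 each), a log2 fold change of 0.08. Its partner Cubn, the albumin and vitamin B12 receptor, averaged 330.2 ± 67.3 CPM in KO kidneys and 350.1 ± 22.8 CPM in WT kidneys, with -0.08 on the log2 scale. It was highest in KO kidney 13, and without that library its log2 fold change was -0.20. Dab2, the adaptor that links megalin to clathrin, averaged 408 ± 49.3 CPM in KO kidneys and 418 ± 22.1 CPM in WT kidneys, with -0.03.

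Among sodium-coupled sugar and monocarboxylate carriers, Slc5a2 (SGLT2), the bulk glucose carrier of the early segments, had 340.4, 279.9, 282, 384 and 313 CPM in KO kidneys, against 374, 266, 305, 251 and 299.7 CPM in WT kidneys. KO kidney 16 and WT kidney 19 were the highest and the groups overlapped. edgeR fitted a log2 fold change of 0.10 (SE 0.12, 95% interval -0.15 to 0.34) for Slc5a2, with an unadjusted p of 0.414. Slc5a1 (SGLT1), which takes up the remaining glucose in the later tubule, had 86.8, 69.6, 70.3, 63.7 and 68.4 CPM in KO kidneys, against 85.7, 70.0, 71.1, 78.0 and 84.9 CPM in WT kidneys. KO kidney 13 matched the highest WT kidneys, and the other 4 KO kidneys lay at the low end of the WT range or under it. For Slc5a1, KO over WT, this gave -0.12 (SE 0.10, 95% interval -0.32 to 0.08) on the log2 scale and an unadjusted p of 0.232 by edgeR.

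Slc5a12, a low-affinity lactate carrier of the brush border, had 252, 121, 121, 250.3 and 120.5 CPM in KO kidneys, against 135, 122, 165, 149 and 129 CPM in WT kidneys. The KO kidneys fell into a high pair, mice 13 and 16, above every WT kidney, and 3 others just below the lowest WT kidney. Slc5a12 thus had a log2 fold change of 0.31 (SE 0.24, 95% interval -0.22 to 0.83), with an unadjusted p of 0.226 by edgeR. Its high-affinity relative Slc5a8 averaged 234 ± 50.9 CPM in KO kidneys and 237 ± 20.4 CPM in WT kidneys (SD, n = 5 each), with a log2 fold change of -0.01. The mannose and fructose carrier Slc5a10 averaged 177 ± 26.6 CPM in KO kidneys and 184 ± 20.9 CPM in WT kidneys, with -0.06.

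Organic anion and cation carriers held the members with the smallest p-values. Slc22a19, an anion exchanger of the brush border described in rodents, had 105, 70.8, 95.2, 99.4 and 68.5 CPM in KO kidneys, against 95.1, 103, 101, 112 and 103 CPM in WT kidneys. KO kidneys 14 and 18 were under every WT kidney, while the other 3 KO kidneys lay within the WT range. The fitted log2 fold change was -0.22 (SE 0.12, 95% interval -0.47 to 0.02), with an unadjusted p of 0.0709 by edgeR's quasi-likelihood test, the smallest of the 41. Slc22a7 (OAT2) had 209, 142, 193, 165 and 166 CPM in KO kidneys, against 189.9, 164, 216, 251 and 190.1 CPM in WT kidneys. KO kidney 14 was the lowest and WT kidney 23 the highest, with the other 8 in between. By edgeR's quasi-likelihood test Slc22a7 had a log2 fold change of -0.21 (SE 0.12, 95% interval -0.46 to 0.05) and an unadjusted p of 0.11. Slc22a13, a urate and nicotinate carrier in humans, had 100.2, 60.5, 86.0, 85.8 and 91.9 CPM in KO kidneys, against 91.6, 81.6, 91.4, 109 and 93.9 CPM in WT kidneys. KO kidney 14 alone lay below the WT range. edgeR fitted a log2 fold change of -0.14 (SE 0.12, 95% interval -0.39 to 0.11) for Slc22a13, with an unadjusted p of 0.256.

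Slc22a6 (OAT1), the basolateral carrier that draws drugs and waste anions from the blood, had 936, 775, 824, 983 and 726 CPM in KO kidneys, against 911, 874, 927, 795 and 877 CPM in WT kidneys. The highest and the lowest of the 10 kidneys were both KO, mice 16 and 18. For Slc22a6, KO over WT, this gave -0.05 (SE 0.09, 95% interval -0.25 to 0.15) on the log2 scale and an unadjusted p of 0.631 by edgeR. Its neighbour Slc22a8 (OAT3) averaged 558 ± 58.6 CPM in KO kidneys and 551 ± 29.0 CPM in WT kidneys (SD, n = 5 each), and the basolateral cation carrier Slc22a2 (OCT2) averaged 336 ± 31.0 CPM in KO kidneys and 342 ± 11.9 CPM in WT kidneys. Slc47a1 (MATE1), which passes cations on into the urine, averaged 704 ± 29.9 CPM in KO kidneys and 690.0 ± 39.2 CPM in WT kidneys and had the narrowest range over the 10 kidneys of all 41 genes, 1.15-fold from lowest to highest. Slc22a30 averaged 210.3 ± 28.2 CPM in KO kidneys and 205 ± 17.9 CPM in WT kidneys, and Slco4c1 averaged 30.0 ± 5.83 CPM in KO kidneys and 32.4 ± 3.61 CPM in WT kidneys. The log2 fold changes of these 5 were 0.02, -0.03, 0.03, 0.04 and -0.11 in that order. Of the 9 organic ion carriers, 6 had a negative log2 fold change and the median was -0.05. Slc22a family genes include close relatives, and how reads matching several copies were counted is not given in the sources used here.

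For amino acid uptake, Slc7a13, which pairs with the heavy chain encoded by Slc3a1 in segment S3, had 789.5, 668, 845, 899 and 798 CPM in KO kidneys, against 847, 912, 873, 856 and 817 CPM in WT kidneys. KO kidney 14 was the lowest, KO kidneys 13 and 18 also lay under every WT kidney, and KO kidneys 15 and 16 lay within the WT range. Slc7a13 thus had a log2 fold change of -0.11 (SE 0.09, 95% interval -0.29 to 0.08), with an unadjusted p of 0.242 by edgeR. Slc3a1 itself, the heavy chain of the cystine and dibasic amino acid carrier, had the widest range of the 41 genes over the 10 kidneys, 2.80-fold. It had 451, 161, 263, 332 and 197 CPM in KO kidneys, against 373, 261, 297, 266 and 375 CPM in WT kidneys. Both ends of the range were KO kidneys, mouse 13 the highest and mouse 14 the lowest, and the WT kidneys lay between. The fitted log2 fold change was -0.16 (SE 0.25, 95% interval -0.72 to 0.40), with an unadjusted p of 0.537 by edgeR's quasi-likelihood test. Slc7a9, the light chain that Slc3a1 carries to the brush border in the early segments, had a 1.31-fold range and averaged 112 ± 9.10 CPM in KO kidneys and 116 ± 11.6 CPM in WT kidneys (SD, n = 5 each).

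Slc6a19 (B0AT1), the main neutral amino acid carrier of the early brush border, had 402, 287, 343, 385 and 277 CPM in KO kidneys, against 407, 309, 362, 313 and 210.1 CPM in WT kidneys. The library labelled WT 24 was the lowest of the 10, and without it the log2 fold change was -0.04 in place of 0.08. Its neighbour Slc6a18, a glycine carrier, averaged 671 ± 83.9 CPM in KO kidneys and 723 ± 81.4 CPM in WT kidneys (SD, n = 5 each), and Slc6a20b of the same family averaged 212 ± 26.1 CPM in KO kidneys and 221 ± 15.02 CPM in WT kidneys. The basolateral exchanger subunits Slc7a7 and Slc7a8 hand amino acids on to the blood. Slc7a7 averaged 119 ± 7.10 CPM in KO kidneys and 118 ± 15.4 CPM in WT kidneys, and Slc7a8 averaged 160.5 ± 10.7 CPM in KO kidneys and 162 ± 13.4 CPM in WT kidneys. Of the 8 amino acid genes, 6 had a negative log2 fold change, with a median of -0.05.

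Of the ion and water transport genes, Aqp1, the water channel of both membranes, had 874, 712, 850.4, 824 and 1065 CPM in KO kidneys, against 899, 757, 756, 855 and 837 CPM in WT kidneys. KO kidney 18 was the highest and KO kidney 14 the lowest. By edgeR's quasi-likelihood test Aqp1 had a log2 fold change of 0.08 (SE 0.10, 95% interval -0.14 to 0.29) and an unadjusted p of 0.472. Slc4a4 (NBCe1), the basolateral bicarbonate exit route, had 914, 555, 599, 721 and 459 CPM in KO kidneys, against 705, 632, 641, 576 and 772 CPM in WT kidneys. KO kidney 13 was the highest and KO kidney 18 the lowest, and all WT kidneys lay between them. Its log2 fold change was -0.03 (SE 0.15), and -0.19 without KO kidney 13. Slc9a3 (NHE3), the sodium-proton exchanger of the brush border, averaged 121 ± 16.4 CPM in KO kidneys and 113 ± 12.7 CPM in WT kidneys (SD, n = 5 each). The sulfate carriers of the brush border and the basolateral side, Slc13a1 and Slc26a1, averaged 271 ± 23.1 CPM in KO kidneys and 285 ± 18.2 CPM in WT kidneys, and 141 ± 13.7 CPM in KO kidneys and 146 ± 13.3 CPM in WT kidneys, in that order.

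Among carboxylate, urate and phosphate carriers, Slc17a1 (NPT1) had 579, 462, 537, 566 and 539 CPM in KO kidneys, against 585, 531, 556, 537 and 626 CPM in WT kidneys. KO kidney 14 was the lowest and the library labelled WT 24 the highest. edgeR fitted a log2 fold change of -0.08 (SE 0.08, 95% interval -0.26 to 0.10) for Slc17a1, with an unadjusted p of 0.365. Slc17a3 (NPT4), which carries urate out into the filtrate, averaged 556 ± 68.0 CPM in KO kidneys and 596 ± 46.1 CPM in WT kidneys (SD, n = 5 each). Slc2a9 (GLUT9) averaged 20.8 ± 1.22 CPM in KO kidneys and 19.6 ± 0.952 CPM in WT kidneys, with a log2 fold change of 0.09. The citrate carrier of the brush border, Slc13a2, averaged 51.0 ± 10.9 CPM in KO kidneys and 52.0 ± 7.17 CPM in WT kidneys, and its basolateral counterpart Slc13a3 averaged 709 ± 73.6 CPM in KO kidneys and 739 ± 102 CPM in WT kidneys. In this group 4 of 5 log2 fold changes were negative, with a median of -0.06.

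The ABC exporters pump conjugates and drugs into the urine at the cost of ATP. Abcg2 (BCRP), the first of them per kilobase, had 408, 335, 407, 393 and 352 CPM in KO kidneys, against 451, 364, 378, 328 and 436 CPM in WT kidneys. The WT kidneys held both the highest and the lowest value. For Abcg2, KO over WT, this gave -0.05 (SE 0.10, 95% interval -0.26 to 0.17) on the log2 scale and an unadjusted p of 0.654 by edgeR. Abcc2 (MRP2) had 448, 242, 284, 349 and 297 CPM in KO kidneys, against 292, 313, 455, 393 and 314 CPM in WT kidneys. KO kidney 13 and WT kidney 22 stood at nearly the same high level, and KO kidney 14 was the lowest. Its log2 fold change was -0.13 (SE 0.16). Abcc4 (MRP4) averaged 48.4 ± 11.9 CPM in KO kidneys and 50.7 ± 8.08 CPM in WT kidneys (SD, n = 5 each), with -0.07. The further S3 markers gave values on either side of 0. Acy3 had 1949, 2187, 2376, 2304 and 2311 CPM in KO kidneys, against 2472, 2346, 2382, 2054 and 2002 CPM in WT kidneys, with KO kidney 13 the lowest and WT kidney 19 the highest. Acy3 thus had a log2 fold change of -0.02 (SE 0.09, 95% interval -0.21 to 0.18), with an unadjusted p of 0.857 by edgeR. Atp11a, a flippase that moves phospholipids across the cell membrane, averaged 1220.2 ± 249 CPM in KO kidneys and 1131 ± 136 CPM in WT kidneys, with a log2 fold change of 0.11.

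By segment, the 9 S3 genes were Slc5a1, Slc22a7, Slc22a13, Slc22a19, Slc22a30, Slc7a13, Slc6a18, Acy3 and Atp11a. The 8 genes of S1 and S2 were Slc5a2, Slc5a12, Slc7a7, Slc7a8, Slc6a19, Slc22a6, Slc22a8 and Slc4a4. Of the S3 genes, 7 had a negative log2 fold change, with a median of -0.11. So did 3 of the S1 and S2 genes, with a median of 0.02. Without the library labelled WT 24, 7 S3 genes (median -0.12) and 2 S1 and S2 genes (median 0.03) were negative. Over all genes the negative share was 47.8%. None of the 17 passed the test. Summed over the 9 S3 genes, KO kidneys held 4949 to 6019 CPM (median 5596) and WT kidneys 5277 to 6022 CPM (median 5629). Most of this came from Acy3 and Atp11a, with 3142 to 3774 CPM in KO kidneys and 3043 to 3699 CPM in WT kidneys. Summed over the 8 genes of S1 and S2, KO kidneys held 2769.8 to 3659 CPM (median 2922) and WT kidneys 2884 to 3386 CPM (median 3170.4). Both sums spanned a wider range among KO kidneys, and the groups overlapped.

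The KO kidneys differed among themselves across many of these genes. KO kidney 14 was the lowest of the 10 kidneys for 16 of the 41 genes and below the gene's own mean for 38, with a median deviation of -0.19 on the log2 scale. KO kidney 18 was the lowest for 10 genes, with a median deviation of -0.11. KO kidney 13 was the highest for 12 genes and below the mean for only 6, with a median deviation of 0.15. The other 7 kidneys had median deviations from -0.06 (KO kidney 15) to 0.08 (KO kidney 16). These libraries were picked after their values were seen. The same counts over all genes are not given, so they do not set the 41 genes apart from other genes. KO kidney 14 was also lowest for the sums of brush border genes (3994 CPM), further carriers (15000 CPM) and endocytosis machinery (1140.5 CPM). The sum of the transcription factors was lowest in WT kidney 22 and that of the PDZ scaffolds in KO kidney 13. These lists are described below.

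The summed level of the 41 genes was lowest at 15415 CPM in KO kidney 14 and highest at 19468 CPM in KO kidney 13, with 16849 to 18153 CPM in WT kidneys. Not all genes took part. Slc22a8 was highest in KO kidney 14, Amn and Acy3 were lowest in KO kidney 13, and Aqp1 and Amn were highest in KO kidney 18. The SD over libraries was larger in KO than in WT kidneys for 31 of the 41 genes, while 66.8% of all genes showed the same. The median coefficient of variation of the 41 genes was 13.4% in KO and 10.1% in WT kidneys. For all genes tested it was 16.5% in KO and 12.3% in WT kidneys. All genes tested include genes with far fewer reads, and the comparison was not matched for level.

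**Figure D3:**
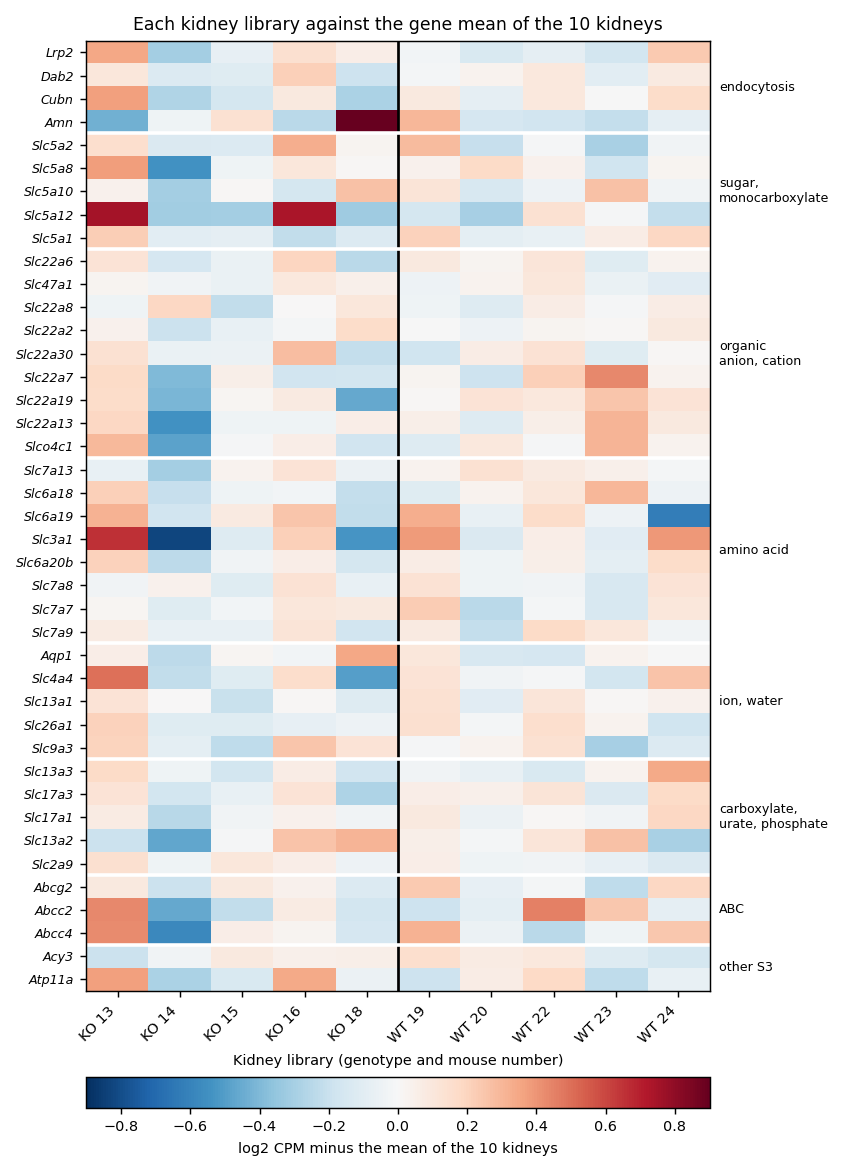
Deviation of each kidney library from the gene's mean over the 10 kidneys, in log2 CPM, for the 41 genes grouped by role (rows) and the libraries (columns, KO left of the black line and WT right of it). Red is above and blue below the mean. The column of KO kidney 14 is mostly blue, below the mean for 38 of 41 genes, and that of KO kidney 13 mostly red, below the mean for 6.

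Markers of other cell types varied between kidneys as well, and their part in these differences was not tested. The share of counts from mitochondrially encoded genes was 5.96% to 9.55% in KO kidneys and 7.14% to 9.50% in WT kidneys, with KO kidney 13 at the top and KO kidney 18 at the bottom. The 3 distal convoluted tubule markers had the same lowest and highest kidney as the 41 genes. They summed to 789 to 1196 CPM in KO kidneys, lowest in mouse 14 and highest in mouse 13, and 809 to 1036 CPM in WT kidneys, and all 3 had a positive log2 fold change with 0 called by edgeR. The 5 podocyte markers summed to 339 to 416 CPM in KO kidneys, highest in mouse 13, and 336 to 386 CPM in WT kidneys. The 5 thick ascending limb markers summed to 3566 to 4729 CPM in KO kidneys, highest in mouse 13, and 3442 to 5156 CPM in WT kidneys, highest in the library labelled WT 24. The 5 principal cell markers summed to 371 to 675 CPM in KO kidneys, highest in mouse 18, and 455 to 532 CPM in WT kidneys. The 5 intercalated cell markers summed to 300.4 to 353 CPM in KO kidneys, also highest in mouse 18, and 275 to 334 CPM in WT kidneys. The 5 hepatocyte markers summed to 135 to 167 CPM in KO kidneys, highest in mouse 14, and 106 to 167 CPM in WT kidneys. The 4 papillary and urothelial markers summed to 14.8 to 24.5 CPM in KO kidneys, lowest in mouse 13, and 15.5 to 20.8 CPM in WT kidneys. The 4 adipose markers summed to 39.7 to 163 CPM in KO kidneys, lowest in mouse 13, and 46.1 to 125 CPM in WT kidneys. The 6 fibroblast and mural markers summed to 349 to 366 CPM in KO kidneys and 365 to 437 CPM in WT kidneys. Log2 fold changes were also all positive for the intercalated cell, hepatocyte and adipose markers, and all negative for the fibroblast and mural markers. Without the library labelled WT 24, 1 intercalated cell marker and 1 adipose marker were negative. The remaining lists named here went both ways. edgeR called 0 in each list, and 47.8% of all genes were negative. Of these markers, none was at 0 counts in kidney.

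Markers of tubule injury did not stand apart between the groups. Havcr1 (KIM-1), which injured proximal tubule cells make, averaged 1.83 ± 0.684 CPM in KO kidneys and 2.05 ± 0.705 CPM in WT kidneys, and Lcn2 averaged 3.49 ± 1.06 CPM in KO kidneys and 3.47 ± 1.18 CPM in WT kidneys (SD, n = 5 each). Summed over 6 injury markers, KO kidneys held 626 to 763 CPM and WT kidneys 661 to 795 CPM, most of it from Spp1, which healthy tubules also make.

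Other proximal tubule genes gave 0 calls in each of 5 lists by edgeR, DESeq2 and limma voom (0.00579%, 0.0869% and 0.0405% of all genes). At an unadjusted p under 0.05 by edgeR there were 2 genes in all, Maf and Slc34a1 (2.95% of all genes). The log2 fold change was negative for 47.8% of all genes. The 2 genes with the smallest p in each list are named, each with an adjusted p of 0.999 by edgeR. Of 7 transcription factors 6 had a positive log2 fold change, with Maf at 0.24 (edgeR unadjusted p = 0.0357) and Pax8 at 0.05 (edgeR unadjusted p = 0.559). Of 7 PDZ scaffolds and partner subunits 6 were negative. Slc9a3r2, a scaffold of Slc9a3, stood at 0.13 (edgeR unadjusted p = 0.18), and Cltrn, the partner that brings Slc6a19 to the membrane, at -0.09 (edgeR unadjusted p = 0.316). Of 9 endocytosis machinery genes 5 were negative. The recycling GTPase Rab11a and the receptor chaperone Lrpap1 both stood at -0.07 (edgeR unadjusted p = 0.384 for Rab11a and unadjusted p = 0.386 for Lrpap1).

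Of 13 brush border peptidases and structural genes 12 were negative, with a median of -0.05, and 10 were negative without the library labelled WT 24. The meprin subunit Mep1b stood at -0.23 (edgeR unadjusted p = 0.0804) and the cadherin Cdhr2 at -0.15 (edgeR unadjusted p = 0.2). Of 18 further carriers 11 were negative (12 without the library labelled WT 24), including the GABA carrier Slc6a13 at -0.16 (edgeR unadjusted p = 0.0695). The main phosphate carrier of the brush border, Slc34a1, had 4930.0, 4731, 4722, 5053 and 4891 CPM in KO kidneys, against 6357, 5567, 5845, 5591 and 5517 CPM in WT kidneys. Every KO kidney was below every WT kidney, which held for no other of these 18 carriers. Over all genes, 0.562% had groups that did not overlap, in either direction. Slc34a1 had a log2 fold change of -0.25 (edgeR unadjusted p = 0.00709, adjusted p = 0.999), and over 19 alternative analyses its adjusted p ran from 0.0826 to 1.

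Liver gives the contrast for these genes, since several of them also serve bile formation and drug uptake there. In 1 fit over both tissues, 37 of the 41 genes were higher in kidney than in liver and 4 were lower, by edgeR's quasi-likelihood test with Benjamini-Hochberg adjustment, where 45.5% of 18549 genes were higher and 35.5% lower (81.1% in all). The joint TMM factors averaged 0.91 higher in kidney than in liver on the log2 scale, so kidney-over-liver values depend on the scaling. Scaled by library totals instead, 39 were higher and 1, Slc2a9, was lower. Levels between tissues are given on the joint scale, which differs from the within-tissue scale used above.

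**Figure D4:**
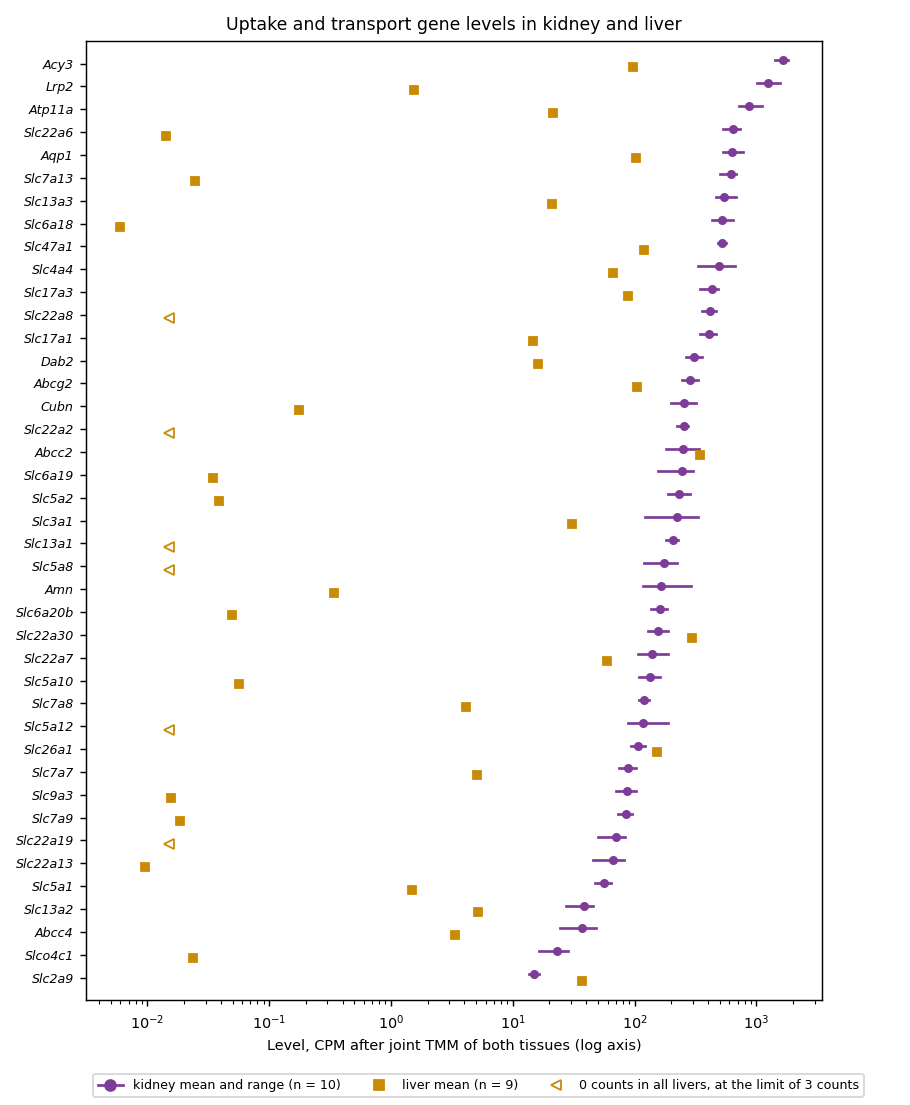
Level of the 41 genes in kidney (purple, mean and range of 10 libraries) and liver (ochre squares, mean of 9 libraries), in CPM after joint TMM scaling on a log axis, ordered by kidney level. Open triangles mark the 6 genes with 0 counts in all livers, drawn at the level of 3 counts, 0.0149 CPM. Liver squares lie right of the kidney mean for Abcc2, Slc22a30, Slc26a1 and Slc2a9.

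Liver libraries held 0 counts of 6 of the genes, so their folds are lower bounds, set against 3 counts over all livers (0.0149 CPM, counting error only). Slc22a8 was at least 27700-fold higher in kidney, Slc22a2 at least 17000-fold, Slc13a1 at least 13900-fold, Slc5a8 at least 11800-fold, Slc5a12 at least 7810-fold and Slc22a19 at least 4760-fold. Another 13 genes averaged under 1 CPM in liver, among them Slc7a13 (617 CPM in kidney and 0.0245 CPM in liver), the cubilin pair Cubn and Amn, and Slc5a2. Slc22a6, Slc22a13, Slc6a18 and Slc9a3 were among these 13 with 1 to 3 counts in all livers, and no fold is given for them. Lrp2 averaged 1251 ± 170.2 CPM in kidney and 1.54 ± 0.971 CPM in liver (SD, n = 10 and 9), and Dab2 averaged 307 ± 27.7 CPM in kidney and 16.2 ± 2.15 CPM in liver.

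At the other end 14 genes averaged 20 CPM or more in liver. Per kilobase of exon the highest in liver were Slc22a30 at 87.3 CPM per kb, Acy3 at 47.4, Abcc2 at 40.5, Aqp1 at 39.0, Slc26a1 at 37.6 and Slc47a1 at 35.2 CPM per kb. Of the 4 genes lower in kidney, Slc2a9 was the only one that stayed lower with library totals. Slc2a9 averaged 15.02 ± 0.906 CPM in kidney and 37.1 ± 6.18 CPM in liver (SD, n = 10 and 9), a log2 fold change of -1.31 (edgeR adjusted p = 6.5e-13), and -0.41 with library totals. Slc22a30 averaged 154 ± 17.2 CPM in kidney and 294 ± 24.3 CPM in liver, with -0.93 (edgeR adjusted p = 4.43e-11), and -0.03 with library totals. Slc26a1 averaged 106 ± 9.48 CPM in kidney and 152 ± 28.3 CPM in liver, with -0.53 (edgeR adjusted p = 1.33e-05), and Abcc2, which drives bile flow in hepatocytes, averaged 252 ± 53.4 CPM in kidney and 346 ± 107 CPM in liver, with -0.45 (edgeR adjusted p = 0.01). With library totals both of these turned to higher in kidney, at 0.37 for Slc26a1 and 0.45 for Abcc2.

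The 5 genes whose promoters are printed above spanned this contrast. Slc22a19 had 0 counts in liver, Slc22a30 was lower in kidney, and Lrp2 was among the genes near 1 CPM in liver. Slc3a1 averaged 221 ± 64.4 CPM in kidney and 30.5 ± 14.6 CPM in liver, and Slc7a9 averaged 84.5 ± 7.75 CPM in kidney and 0.0186 ± 0.0303 CPM in liver with only 4 counts in all livers (SD, n = 10 and 9).

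Of the 41 genes, 22 were high enough in liver to be tested between genotypes there. Of these 22, 0 passed by edgeR's quasi-likelihood test with Benjamini-Hochberg adjustment over 14591 genes, where 0 genes in all (0.0%) passed. DESeq2 and limma voom also called 0 of the 22 (0.288% and 0.0343% of all genes), as did edgeR without the library labelled WT 24 (0.0336%), and 0 of the 22 had an unadjusted p under 0.05 (4.17% of all genes). The log2 fold change was negative for 12 of the 22 (48.7% of all genes), with a median of -0.01, and the groups overlapped for all 22 (1.56% of all genes did not overlap). The 22 are the members that liver also makes, not a sample of the 41.

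The smallest p in liver was that of Slc22a7, which had 62.1, 42.7, 49.5, 51.9 and 31.0 CPM in KO livers, against 35.2, 42.4, 35.3 and 37.0 CPM in WT livers (KO mice 13, 14, 15, 16 and 18, WT mice 19, 20, 22 and 24). KO liver 13 was the highest and KO liver 18 the lowest. Its log2 fold change was 0.34 in liver (SE 0.16, edgeR unadjusted p = 0.0586) and -0.21 in kidney. The test of the difference between tissues gave -0.55 (edgeR unadjusted p = 0.0169, adjusted p = 1). Of all 41 genes, 0 passed that test of kidney effect minus liver effect (0.0% of 18549 genes). At an unadjusted p under 0.05 there were 4, Slc7a13, Slc22a7, Slc7a9 and Slc9a3 (4.12% of all genes), and DESeq2 and limma voom called 0. The smallest adjusted p was 0.914, for Slc7a13, which had 5 counts in all livers. Slc7a9 had 4 counts in all livers and Slc9a3 had 3, all in 1 library. Genes too low in liver to be tested there entered this test through their kidney counts. The values of Slc7a13, Slc7a9 and Slc9a3 rest on these few liver reads and do not show a KO effect that differs between tissues.

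Some of the genes that varied most between kidneys also varied between livers. Abcc2 had 434, 276, 208, 216 and 169.7 CPM in KO livers, against 211, 218, 288 and 219.9 CPM in WT livers, highest in KO mouse 13 and next in WT mouse 22. The same mouse numbers gave the highest kidney values. Its log2 fold change in liver was 0.15 (SE 0.24), and -0.11 without KO liver 13. Slc3a1 had 40.0, 16.05, 12.2, 13.6 and 20.6 CPM in KO livers, against 18.6, 12.4, 26.4 and 38.0 CPM in WT livers, highest in KO mouse 13 and in the library labelled WT 24. KO mouse 14, the lowest in kidney, was not the lowest in liver. Slc5a12 and Amn, with 0 and under 1 CPM in liver, allow no such view. The labels give mice the same numbers in both tissues and do not say in words that equal numbers are the same animal.

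**Figure D5:**
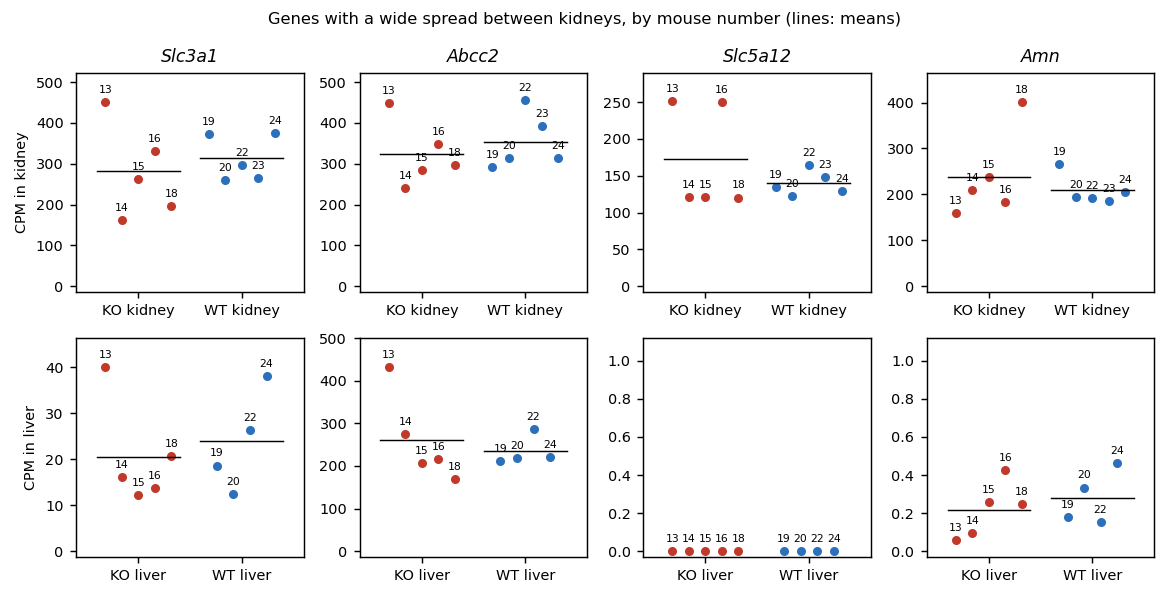
Level of Slc3a1, Abcc2, Slc5a12 and Amn in each kidney (top) and liver (bottom) library, in CPM after TMM within the tissue, with KO left of WT and the mouse number above each point. Lines are group means (KO n = 5 in both tissues, WT n = 5 in kidney and 4 in liver). Mouse 13 is the highest KO library for Slc3a1 and Abcc2 in both tissues.

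Some counts could hold reads of another gene. The exons of 10 of the 41 genes overlap a gene on the opposite strand in the table, and the strand setting of the counting is not given in the sources used here. Slc3a1 shares 601 bases with Prepl, a peptidase gene on the other strand. Prepl had 162, 74.6, 97.0, 119 and 84.9 CPM in KO kidneys, against 114, 108, 115, 120.4 and 122 CPM in WT kidneys. KO kidney 13 was again the highest and KO kidney 14 the lowest, and the part of shared reads in the range of Slc3a1 was not tested. Slc6a20b shares 1800 bases with Sacm1l, the longest overlap of the 10, where Sacm1l averaged 31.4 CPM over the 10 kidneys.

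In the GENCODE M21 annotation of GRCm38, several members sit side by side. Slc6a18 (chr13:73661752-73678023) and Slc6a19 (chr13:73679745-73704865) lie 1.72 kb apart on the minus strand, Slc22a8 (chr19:8591254-8611835) and Slc22a6 (chr19:8618039-8628299) 6.2 kb apart on the plus strand, and Slc17a3 (chr13:23839434-23860716) and Slc17a1 (chr13:23867750-23895730) 7.03 kb apart on the plus strand. The log2 fold changes of the neighbours were -0.11 and 0.08, 0.02 and -0.05, and -0.10 and -0.08, pair by pair in that order. Of the genes, 5 share chromosome 13 with H2afy (chr13:56073619-56136361, minus strand). Slc6a18 and Slc6a19 lie 17.5 Mb and Slc9a3 18 Mb above it, and Slc17a1 and Slc17a3 lie 32.2 Mb below it. None of the 5 passed the test, and their log2 fold changes ran from -0.11 to 0.11.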

How the data were processed

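Poly(A) RNA of whole kidney and liver was sequenced, and the authors deposited counts of reads for 26506 genes in 19 libraries, not normalized. Per the submitters' processing notes, Trim Galore, STAR, featureCounts and DESeq2 were used with the build GRCm38; versions, the strand setting and the handling of reads that match several places are not given in the sources used here. Of the gene IDs, 26417 matched GENCODE M21 and 89 did not. The members and lists were chosen with earlier results of these data known. Genotype and tissue in the sample labels gave the groups. Replicates are known only by their mouse numbers, and a p-value covers the spread among the libraries at hand. The WT liver numbered 23, Slc22a12 and Ehd1 were not analysed here, and 1 planned promoter motif and 1 listed gene are not reported here.

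Counts were filtered with filterByExpr (minimum count 10), scaled by TMM within a tissue (over both tissues for kidney against liver and for the difference of effects) and tested with edgeR's quasi-likelihood test over all genes, with Benjamini-Hochberg adjustment at 0.05 (edgeR 4.0.16, limma 3.58.1, DESeq2 1.42.0, R 4.3.3; summaries in Python 3.11.15 with pandas 2.3.3 and numpy 2.4.6). The procedure was tested on simulated data. Values in every kidney are given for the first gene of each role group per kilobase of exon and for the 6 members with the smallest p; the 2 smallest p-values name the genes of other lists, and the 6 highest levels those of liver. Per-library values of Slc3a1, Slc6a19, Slc4a4, Abcc2, Slc34a1 and Prepl, and the libraries singled out, were chosen after their values were seen. Alternatives were other scalings, filters and tests, 1 fit of all libraries, removal of mitochondrial and haemoglobin genes, leaving out each mouse, leaving out mice 16 and 24, and the mouse number as a block.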

Additional observations from a re-analysis of the deposited data

Results flagged for a closer look

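In all, 126 sets of 4 or 5 libraries were looked at. They were the 41 genes in each kidney group and the 22 genes tested in liver in each liver group. Of these, 4 held a library far from the others of its group by Dixon's criterion, where chance gives about 1 in 20. Slc26a1, the basolateral sulfate carrier, stood at 164.8 CPM in KO kidney 13, against 132 to 138 CPM in the other KO kidneys. Slc5a1, the late glucose carrier, stood at 86.8 CPM in the same kidney, against 63.7 to 70.3 CPM in the others. Amn, the anchor of cubilin, stood at 265.6 CPM in WT kidney 19, against 186 to 204 CPM in the other WT kidneys. Abcc2, the exporter of conjugates, stood at 287.6 CPM in WT liver 22, against 211 to 219.9 CPM in the other WT livers.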

How the results depend on the processing

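The count of the 41 genes called between KO and WT, and in the difference between tissues, was 0 under each alternative run. Counts over all genes moved. In kidney, where 1 gene was called, DESeq2 called 15, limma voom 7, 1 fit of all libraries 3, the table with no filter 4, and the set without mice 16 and 24 called 12; leaving out each library gave 1 to 10, with 10 without KO kidney 16 and 7 without the library labelled WT 24 and 2 without KO kidney 13, 14, 15 or 18. In liver, where 0 were called, the same 5 settings gave 42, 5, 21, 3 and 11, and leaving out each library gave 0 to 7, with 7 without KO liver 16, 5 without the library labelled WT 24 and 1 without KO liver 13. For the difference of effects, where 0 were called, DESeq2 called 11, limma voom 1 and the set without mice 16 and 24 called 4, and leaving out each mouse gave 0 to 3. In kidney against liver, library totals left 1 gene of the 41 lower, in place of 4. The cause of these shifts was not tested.

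Of 779 single kidney values under alternatives, 733 kept their sign and 5 moved by at least the SE of the main log2 fold change. Of 396 liver values 347 kept their sign and 5 moved by that much. Library totals lowered the share of negative kidney fold changes over all genes to 39.5%, and 25 of the 41 genes were then negative. Between 23 and 30 were negative when each kidney was left out, 23 without KO kidney 14 and 30 without KO kidney 16. With DESeq2, 33.3% of the genes called in kidney were lower, while the 1 gene called with edgeR was lower.

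Same-numbered kidneys and livers deviated together by a correlation of 0.07 to 0.39 over 18549 genes in 9 pairs. It was over 0.1 in 7 and best with their own number in 6. The main fits were planned without pairing, since the labels do not state that equal numbers are the same animal. Their p-values for kidney against liver and for the difference of effects thus treat the libraries as independent. With the replicate block, 0 genes and 0 of the 41 were called in the difference of effects, and in kidney against liver 37 of the 41 were higher and 4 lower.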
